A study of Mus musculus with 20 samples.

Results

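Chemokines are small secreted proteins that direct the movement of leukocytes, and here their messenger RNAs and those of their receptors were followed in mouse plantaris muscle during the first week of mechanical overload (MOV). The members were the genes whose single symbol in the array annotation was Ccl, Cxcl, Ccr, Cxcr or Ackr with a number and at most 1 small letter, together with Cx3cl1, Cx3cr1, Xcl1, Xcr1, Pf4 and Ppbp. This rule, which used no measured change, found 62 probe sets for 61 genes (40 ligands and 21 receptors or atypical receptors) of 19505 genes tested, and the probe set with the highest mean over the 20 arrays stood for a gene. All mice were female, 5 months old and Pax7CreER/+; Rosa26DTA/+, a genotype in which tamoxifen turns on Cre in Pax7-expressing satellite cells, the stem cells of muscle, and Cre then releases the A chain of diphtheria toxin in them. Mice given vehicle kept their satellite cells (SC+), mice given tamoxifen were depleted of them (SC-), and both kinds then had sham surgery or removal of the synergist muscles, which overloads the plantaris, for 1, 3, 5 or 7 days. There were 10 groups of 2 arrays, and each array carried RNA pooled from 2 or 3 mice, so the spread between the arrays of a group is a spread between pools. Tamoxifen was not given to mice that keep their satellite cells, so the loss of satellite cells and the drug itself cannot be told apart in any comparison of SC- with SC+.

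Chemokines are named after the spacing of their first cysteines as CC, CXC, CX3C and XC ligands, and they act on G protein-coupled receptors named in the same way. CXC ligands that carry the amino acids glutamate, leucine and arginine ahead of the first cysteine (ELR ligands) attract neutrophils through CXCR2, the CC ligands of CCR2 attract blood monocytes, the ligands of CCR1 attract monocytes and other myeloid cells, and the ligands of CXCR3 attract T cells and are induced by interferon. Other chemokines, such as CXCL12 with its receptor CXCR4, are made steadily and hold stem cells and leukocytes in place. Atypical receptors bind chemokines without signalling through G proteins and remove or store them. In injured or loaded muscle neutrophils enter first and monocytes follow and become macrophages, which are themselves a source of many chemokines, and satellite cells express Cxcr4. In whole muscle, fewer cells of a type and less RNA per cell cannot be told apart.

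Levels are log2 values on the normalized scale of the arrays, and they can be compared between arrays for 1 gene but not between genes. The 20 arrays had medians between 6.50 and 6.57. Of the 61 members 25 had a mean under 6, where such arrays show mostly background, as did 8158 of the 19505 genes, and no member had a mean of 19 or more. The muscle marker Acta1, skeletal actin, was near the top of the scale on every array at 19.91 to 19.93. Pax7, the defining gene of satellite cells, was at 4.84 and 5.02 in SC+ sham and 4.70 and 4.23 in SC- sham, so it lay in the background range in both and could not check the depletion. Of 8 satellite cell markers measured, 3 were lower in SC- than in SC+ sham at an unadjusted p under 0.05, and 6 over all time points (limma). Among the pools, SC+ sham stood apart: replicate 2 was higher than replicate 1 by more than 1 in 15 members and lower by more than 1 in 1, against 1 to 8 members in either direction in the other groups. The widest such gap was in Ccl8, at 6.29 and 10.61. The mean level of 12 macrophage markers differed in the same way, 7.16 in replicate 1 and 9.21 in replicate 2, and the part of tissue composition in this gap was not tested. In SC- at day 1, replicate 2 stood apart on the 6 markers of fibro-adipogenic progenitors, the stromal cells of muscle, with a mean level of 13.45 against 10.94 in replicate 1. The probe sets named Ccl21b and Ccl21c had identical values on all 20 arrays and are 1 measurement counted as 2 members, and Ccl21a, a near copy, followed them (largest difference on 1 array 0.48), so these genes cannot be told apart with certainty. Ccl21b was the 1 member with a second probe set. That set, which was not used, had a mean of 7.43 against 8.20 and differed from the one used by up to 1.07 on an array.

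Many members sit in groups on the chromosomes, and others, such as Cxcl12, Cxcl14, Cxcl16 and Cxcr4, lie apart from any other member. Members of a group are called neighbours here, although other genes can lie between them. By the order of genes in the reference annotation, Cxcl5, Ppbp, Pf4, Cxcl3, Cxcl15, Cxcl1 and Cxcl2 are neighbours on chromosome 5, Ccl2, Ccl7, Ccl11, Ccl12, Ccl8 and Ccl1 are neighbours on chromosome 11, Ccl5, Ccl9, Ccl6, Ccl3 and Ccl4 form another group there, and Ccr9, Cxcr6, Xcr1, Ccr1, Ccr3 and Ccr2 lie together on chromosome 9. The RefSeq promoter table (build GRCm38.p6) held promoters of 46 of the 61 members. The consensus of NF-kappaB, the transcription factor that signals of Toll-like receptors and interleukin-1 switch on, was found on either strand in the 250 bases before the start of 11 of 50 member promoters (22%) and of 7.25% of all 32851 promoters, overlapping matches included. The members that held it were Ackr2, Ccl1, Ccl20, Ccl9, Ccr1, Ccr3, Ccr6, Cxcl1, Cxcl10, Cxcl2 and Cxcl3. The core of the interferon-stimulated response element (ISRE), GAAANNGAA on either strand, was found in 8 of 50 member promoters (16%) and 7.13% of all, in Ccl1, Ccl19, Ccl3, Ccr2, Cxcl10, Cxcl14, Cxcl9 and Cxcr1. A match is a run of letters and not a shown binding site, and no binding was measured.

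The 120 bases before the start of Cxcl1 (chr5:90891125-90891244, + strand), Cxcl2 (chr5:90903779-90903898, + strand) and Cxcl3 (chr5:90785981-90786100, + strand) are shown because these 3 neighbours among the ELR ligands were highest at day 1 in SC+ and hold the same run of letters. Capitals mark that shared 11-base run, GGGAATTTCCC, which matches the NF-kappaB consensus on both strands and starts -71, -97 and -73 bases from the start of Cxcl1, Cxcl2 and Cxcl3.
Cxcl1: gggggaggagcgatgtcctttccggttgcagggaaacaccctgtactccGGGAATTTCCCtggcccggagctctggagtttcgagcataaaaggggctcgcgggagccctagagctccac
Cxcl2: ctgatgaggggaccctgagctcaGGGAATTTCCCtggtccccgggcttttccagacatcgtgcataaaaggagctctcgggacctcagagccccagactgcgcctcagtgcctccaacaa
Cxcl3: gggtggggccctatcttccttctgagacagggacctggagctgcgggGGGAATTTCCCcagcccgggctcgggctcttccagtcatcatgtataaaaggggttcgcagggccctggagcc
The 250 bases before the start of Cxcl10 (chr5:92348890-92349139, - strand) are shown beside them because Cxcl10 also rose at day 1 and holds both motifs. It was chosen after the sequences were seen. Capitals mark the ISRE core at -213 to -205 and the NF-kappaB matches at -159 to -150 and, overlapping each other, at -104 to -94.
Cxcl10: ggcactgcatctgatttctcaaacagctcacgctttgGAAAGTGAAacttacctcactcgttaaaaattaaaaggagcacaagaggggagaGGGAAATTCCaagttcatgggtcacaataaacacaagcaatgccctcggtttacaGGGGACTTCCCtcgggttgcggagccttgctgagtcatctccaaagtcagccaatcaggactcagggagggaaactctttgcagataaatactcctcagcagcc

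In SC+ mice the chemokines changed at once and mostly upward. Against SC+ sham, 18 members rose and 1 fell at day 1, where 8.70% of all genes rose and 9.03% fell (limma on the 10 SC+ arrays, Benjamini-Hochberg adjusted p under 0.05 over all genes). At day 3, 18 members rose and 2 fell, beside 12.0% and 9.52% of all genes. At day 5, 18 rose and 3 fell, beside 11.4% and 7.87%, and at day 7, 9 rose and 4 fell, beside 10.5% and 7.59%. The share of members that rose was thus 29.5% at days 1, 3 and 5 and 14.8% at day 7. The median log2 fold change of the members was 0.20, 0.22, 0.04 and -0.01 at days 1, 3, 5 and 7, and that of all genes -0.03, -0.06, -0.10 and -0.07, so most of the 61 members moved little and a limited set moved a great deal. Over the 4 days 25 members (41.0%) rose at least once, beside 18.9% of all genes, 5 fell at least once and 31 never passed the test. Of the 25 that rose, 15 had their highest mean at day 1, 6 at day 3, 2 at day 5 and 2 at day 7, and 4 rose on all 4 days (6.56%, beside 3.14% of all genes): Ccl12, Pf4, Ccr2 and Cxcr4. The heat map of changes shows these runs by role. The count depends on the sham pools: without SC+ sham replicate 1 it was 16, 19, 17 and 7 members in either direction, and without replicate 2 it was 20, 24, 22 and 15.

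**Figure D1:**
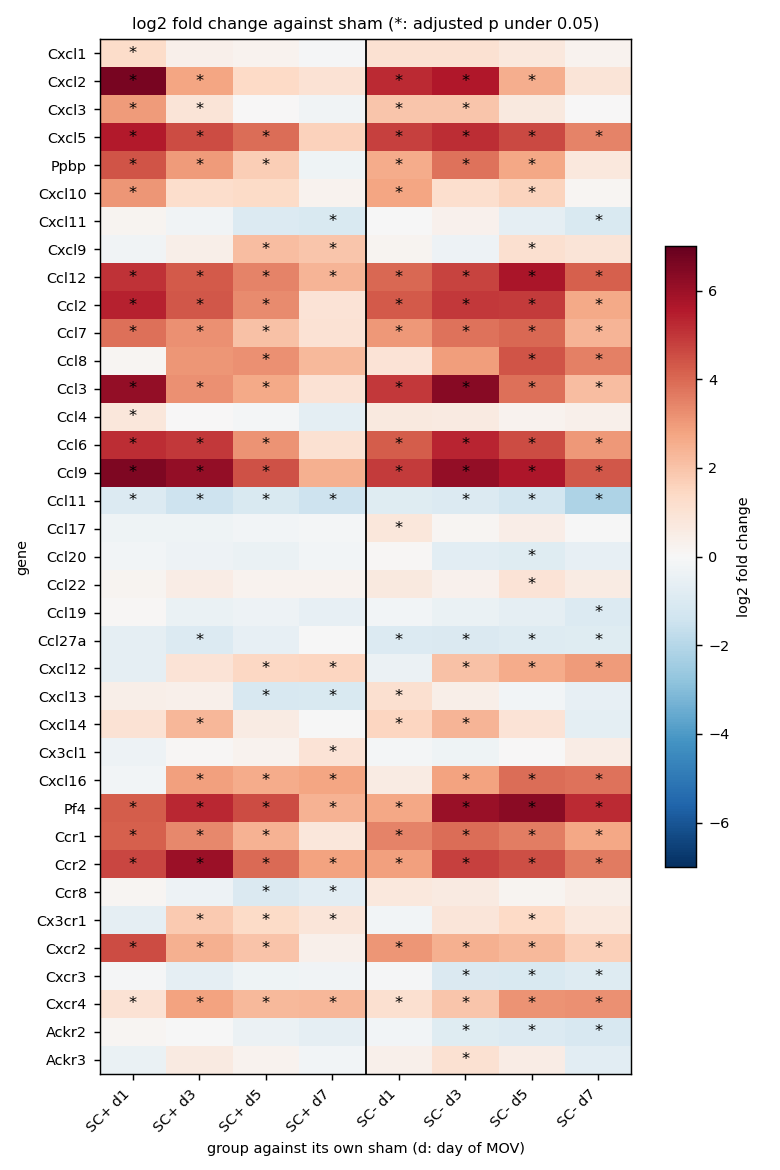
Heat map of log2 fold changes against the sham group of the same treatment for the 37 members called at least once, with days 1, 3, 5 and 7 of MOV as columns for SC+ and SC-, genes grouped by role, and marked cells for an adjusted p under 0.05. CCR2 ligands such as Ccl2 and the receptors Ccr1 and Ccr2 are high from day 1, while Cxcl16 and Cxcr4 are highest from day 3.

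The ELR ligands rose early, with 5 of 6 up at day 1, 4 at day 3, 2 at day 5 and none at day 7 in SC+ (limma; at day 7 only Cxcl5 had an unadjusted p under 0.05). Cxcl2, a neutrophil attractant of activated macrophages and neutrophils, had SC+ levels of 5.47 and 5.67 in sham, 12.55 and 11.82 at day 1, 7.62 and 9.07 at day 3, 7.17 and 6.72 at day 5, 5.85 and 7.28 at day 7. Both day 1 arrays stood far above all others, and the later arrays came back toward sham. Its log2 fold change was 6.62 ± 0.50 (adjusted p = 7.94e-06) at day 1 and 2.78 ± 0.50 (adjusted p = 0.00169) at day 3, against sham levels in the background range, so that the sizes may be understated. At days 5 and 7 it was 1.38 ± 0.50 (adjusted p = 0.0764) and 1.00 ± 0.50 (adjusted p = 0.208), below the test's threshold. Cxcl3, a close relative of Cxcl2, was at 6.64 and 6.09 in sham, 9.46 and 9.28 at day 1, 6.88 and 7.61 at day 3, 6.45 and 6.36 at day 5, 6.11 and 6.09 at day 7. Its rise of 3.00 ± 0.28 (adjusted p = 3.15e-05) at day 1 was short, and that of 0.88 ± 0.28 (adjusted p = 0.0409) at day 3 no longer passed without SC+ sham replicate 2 (0.60 (adjusted p = 0.221)) or day 3 replicate 2 (0.51 (adjusted p = 0.355)). Cxcl1, the third of these neighbours, changed by 1.30 ± 0.36 (adjusted p = 0.0263) at day 1. Its sham levels of 5.32 and 5.38 were also in the background range, so this size may be understated. The call was lost without day 1 replicate 2 (0.59), sham replicate 1 (1.27) or sham replicate 2 (1.33).

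Cxcl5, a CXCR2 ligand made by epithelial and stromal cells, was still up at day 5, as was Ppbp. Its SC+ levels were 3.96 and 5.68 in sham, 9.77 and 11.02 at day 1, 9.02 and 9.77 at day 3, 9.36 and 8.08 at day 5, 5.57 and 7.35 at day 7. All arrays of days 1, 3 and 5 lay above both sham arrays, and at day 7 the lower array lay between them. The log2 fold changes were 5.58 ± 0.68 (adjusted p = 0.0002), 4.58 ± 0.68 (adjusted p = 0.000516) and 3.90 ± 0.68 (adjusted p = 0.00209) at days 1, 3 and 5. Ppbp encodes the precursor of neutrophil-activating peptide 2, which platelets store. Its SC+ levels were 5.36 and 4.67 in sham, 9.45 and 9.42 at day 1, 7.47 and 8.55 at day 3, 6.74 and 6.69 at day 5, 4.28 and 5.17 at day 7. It fell back stepwise, with log2 fold changes of 4.41 ± 0.38 (adjusted p = 2.11e-05), 2.99 ± 0.38 (adjusted p = 0.000205) and 1.70 ± 0.38 (adjusted p = 0.00855) at days 1, 3 and 5, the last of which did not pass without SC+ day 5 replicate 2 (1.72 (adjusted p = 0.0569)). None of the 3 platelet markers measured, of 5 listed, passed on any day in SC+ (log2 fold changes of -0.70 to 0.15). Cxcl15, a lung chemokine, had levels of 5.15 to 6.04 over the 20 arrays and passed no test against sham in SC+ or SC-.

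The receptor of these ligands and the markers of the cells that carry it moved over the same days. Cxcr2, which neutrophils use to sense the ELR ligands, had SC+ levels of 6.63 and 6.90 in sham, 11.91 and 10.71 at day 1, 9.19 and 9.33 at day 3, 9.11 and 8.42 at day 5, 6.66 and 7.56 at day 7. Day 1 held the highest arrays and day 7 overlapped sham. Its log2 fold changes were 4.54 ± 0.40 (adjusted p = 2.51e-05), 2.49 ± 0.40 (adjusted p = 0.00082) and 2.00 ± 0.40 (adjusted p = 0.00457) at days 1, 3 and 5, and 0.34 ± 0.40 (adjusted p = 0.632) at day 7. Cxcr1, the other ELR receptor, stayed between 5.23 and 6.91 in SC+ and did not pass on any day. The 8 neutrophil markers measured, of 10 listed, had mean levels of 5.38 and 6.14 in sham, 10.35 and 10.42 at day 1, 8.34 and 9.06 at day 3, 7.90 and 7.44 at day 5, 6.19 and 7.005 at day 7 in SC+. All 8 rose at days 1 and 3, 5 rose at day 5 and 1 at day 7. The share of the rise of Cxcr2 and of the ELR ligands that comes with more neutrophils was not tested.

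The ligands of CXCR3, the receptor of activated T cells, did not move together. Cxcl10, an interferon-induced chemokine, had SC+ levels of 5.32 and 5.60 in sham, 9.79 and 7.31 at day 1, 6.22 and 7.16 at day 3, 6.70 and 6.91 at day 5, 5.91 and 5.49 at day 7. The arrays of day 1 differed from each other by more than 2 but were both above sham. Its log2 fold change of 3.09 ± 0.59 (adjusted p = 0.00362) at day 1 fell to 1.85 (adjusted p = 0.0135) without day 1 replicate 1, and at days 3, 5 and 7 the values, 1.23, 1.35 and 0.24, did not pass. Cxcl9, induced by interferon gamma, was at 5.36 and 5.83 in sham, 5.58 and 5.12 at day 1, 5.75 and 6.30 at day 3, 7.18 and 8.31 at day 5, 8.03 and 7.10 at day 7. It was late rather than early, with 2.14 ± 0.40 (adjusted p = 0.0032) at day 5 and 1.97 ± 0.40 (adjusted p = 0.00554) at day 7, the latter 1.51 (adjusted p = 0.0586) without day 7 replicate 1. Cxcl11, the third ligand, is at background here (mean 5.06) and fell by 1.09 on the log2 scale at day 7 (adjusted p = 0.0428), a call lost without sham replicate 1 (-0.55 (adjusted p = 0.344)) or either day 7 array. Their receptor Cxcr3 stayed between 6.90 and 7.92 in SC+ and passed no test there. None of 9 T and NK cell markers measured passed on any day in SC+. Several of them, such as Nkg7, Cd3g and Cd3e, lay in the background range, where a change could be missed.

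Ccl2, Ccl7 and Ccl12, ligands of CCR2, the receptor that brings blood monocytes into tissue, rose strongly. All of them were up at days 1, 3 and 5, and at day 7 only Ccl12 was. Ccl2, the main monocyte attractant, had SC+ levels of 6.99 and 7.53 in sham, 13.08 and 12.22 at day 1, 11.19 and 11.996 at day 3, 10.74 and 10.34 at day 5, 8.10 and 8.31 at day 7. No MOV array overlapped sham, and the level came down from day to day. Its log2 fold changes were 5.39 ± 0.35 (adjusted p = 2.62e-06), 4.33 ± 0.35 (adjusted p = 2.75e-05) and 3.28 ± 0.35 (adjusted p = 0.000244) at days 1, 3 and 5, and 0.95 ± 0.35 (adjusted p = 0.0819) at day 7. Ccl7, its neighbour and a further CCR2 ligand, was at 6.29 and 7.59 in sham, 10.94 and 10.62 at day 1, 9.85 and 10.41 at day 3, 8.87 and 9.13 at day 5, 8.10 and 7.82 at day 7. It followed the same course at a smaller size, 3.84 ± 0.37 (adjusted p = 4.08e-05), 3.19 ± 0.37 (adjusted p = 0.00012) and 2.06 ± 0.37 (adjusted p = 0.0024) at days 1, 3 and 5. Ccl12, a mouse CCR2 ligand close to human CCL2, was at 4.86 and 6.76 in sham, 12.22 and 9.51 at day 1, 9.75 and 10.52 at day 3, 9.14 and 9.48 at day 5, 8.13 and 8.23 at day 7. Its arrays at day 1 were 2.72 apart, and the log2 fold changes were 5.05 ± 0.73 (adjusted p = 0.000643), 4.32 ± 0.73 (adjusted p = 0.00121), 3.50 ± 0.73 (adjusted p = 0.00589) and 2.37 ± 0.73 (adjusted p = 0.0432) at the 4 days. The call of day 5 was lost without day 5 replicate 2 (3.33 (adjusted p = 0.0569)), and that of day 7 without sham replicate 1 (1.42 (adjusted p = 0.293)) or either day 7 array.

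Ccl8, a CC chemokine of tissue macrophages, was listed by role with the CCR2 ligands, and the receptor it uses in these mice was not tested. It had SC+ levels of 6.29 and 10.61 in sham, 9.73 and 7.46 at day 1, 11.48 and 11.61 at day 3, 11.44 and 11.87 at day 5, 10.89 and 10.56 at day 7. The sham arrays were so far apart that replicate 2 lay above both day 1 arrays. Its log2 fold changes of 3.10 ± 1.03 (adjusted p = 0.0515) and 2.28 ± 1.03 (adjusted p = 0.163) at days 3 and 7 did not pass, and that of 3.21 ± 1.03 (adjusted p = 0.0486) at day 5 did. Without sham replicate 1 the day 5 value was 1.05 (adjusted p = 0.355), and without day 5 replicate 1 and replicate 2 it was 3.42 (adjusted p = 0.128) and 3.00 (adjusted p = 0.207). The gap between the sham pools was wider than any of these changes. The receptor Ccr2 had SC+ levels of 6.65 and 9.93 in sham, 13.82 and 12.08 at day 1, 14.40 and 14.15 at day 3, 12.05 and 12.42 at day 5, 11.07 and 11.14 at day 7. Both arrays of every MOV day were above both sham arrays, and the level was highest at day 3. The log2 fold changes were 4.66 ± 0.80 (adjusted p = 0.00183), 5.99 ± 0.80 (adjusted p = 0.000267), 3.95 ± 0.80 (adjusted p = 0.00475) and 2.82 ± 0.80 (adjusted p = 0.0291). Without sham replicate 1 they were 3.02, 4.35, 2.31 and 1.18 (adjusted p = 0.192), and the day 7 call was also lost without either day 7 array.

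**Figure D2:**
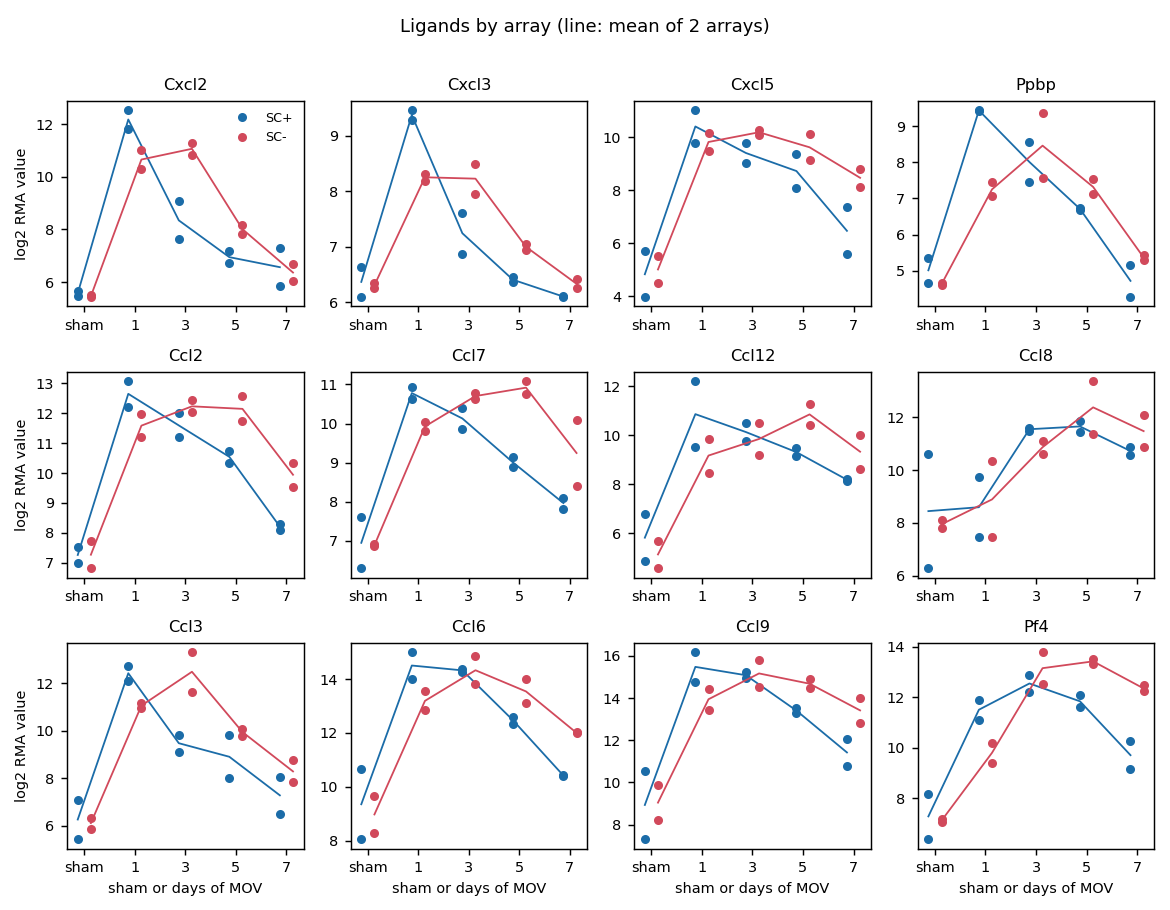
Levels (log2 RMA values, vertical axis) of 12 ligands on each array in sham and on days 1, 3, 5 and 7 of MOV (horizontal axis), SC+ in blue and SC- in red, with a line through the mean of the 2 arrays. Cxcl2 falls from day 1 to day 3 in SC+ but stays near its day 1 level in SC-, where it is 10.85 and 11.30 at day 3.

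Ccl6, Ccl9 and Ccl3, macrophage and neutrophil products that act on CCR1 and related receptors, rose at days 1, 3 and 5, while their family neighbours Ccl4 and Ccl5 moved little. Ccl9 had SC+ levels of 7.31 and 10.55 in sham, 16.19 and 14.77 at day 1, 14.95 and 15.22 at day 3, 13.53 and 13.28 at day 5, 10.76 and 12.08 at day 7. Every array of days 1, 3 and 5 was above both sham arrays by more than 2. Its log2 fold changes were 6.55 ± 0.81 (adjusted p = 0.000219), 6.15 ± 0.81 (adjusted p = 0.000246) and 4.48 ± 0.81 (adjusted p = 0.00259) at days 1, 3 and 5, and without sham replicate 1 the last was 2.85 (adjusted p = 0.00617). Ccl6, the gene beside it, was at 8.05 and 10.65 in sham, 15.01 and 14.002 at day 1, 14.38 and 14.27 at day 3, 12.61 and 12.34 at day 5, 10.40 and 10.44 at day 7. Its fall after day 3 was the same in form, with 5.15 ± 0.61 (adjusted p = 0.000168), 4.97 ± 0.61 (adjusted p = 0.000174) and 3.12 ± 0.61 (adjusted p = 0.00402), the last 1.83 (adjusted p = 0.00748) without sham replicate 1. Ccl3, the macrophage inflammatory protein 1 alpha, was at 5.43 and 7.08 in sham, 12.73 and 12.11 at day 1, 9.11 and 9.83 at day 3, 7.99 and 9.80 at day 5, 6.48 and 8.07 at day 7. It was highest at day 1 and already lower at day 3, with 6.16 ± 0.66 (adjusted p = 9.27e-05), 3.22 ± 0.66 (adjusted p = 0.00401) and 2.64 ± 0.66 (adjusted p = 0.0153). The day 3 call was lost without day 3 replicate 2 (2.85 (adjusted p = 0.0518)) and the day 5 call without sham replicate 1 (1.81 (adjusted p = 0.126)) or day 5 replicate 2 (1.74 (adjusted p = 0.168)).

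Ccl4, macrophage inflammatory protein 1 beta and the gene beside Ccl3, had SC+ levels between 5.98 and 7.59. It rose by 0.78 ± 0.23 (adjusted p = 0.0355) at day 1, a call that was lost without any 1 of the 4 arrays compared (0.62 to 0.93). Ccl5, an attractant of T cells and monocytes, stayed in the background range at 5.31 to 6.10 and passed on no day. Ccr1, the receptor of Ccl3, Ccl6 and Ccl9 on monocytes and neutrophils, had SC+ levels of 4.82 and 5.92 in sham, 9.93 and 9.17 at day 1, 8.64 and 8.83 at day 3, 8.03 and 7.64 at day 5, 5.83 and 6.48 at day 7. It was above sham on both arrays of days 1, 3 and 5 and overlapped sham at day 7. Its changes from sham were 4.18 ± 0.38 (adjusted p = 2.9e-05), 3.37 ± 0.38 (adjusted p = 0.000104) and 2.46 ± 0.38 (adjusted p = 0.00104), and 0.79 ± 0.38 (adjusted p = 0.188) at day 7.

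The genes listed as ligands of CCR3, CCR4, CCR6 and CCR8, among which Ccl8 was not listed, gave a single changing gene in SC+, and it went down. Ccl11 (eotaxin 1), the eosinophil attractant of stromal cells, had SC+ levels of 11.66 and 10.97 in sham, 10.45 and 10.30 at day 1, 9.71 and 9.99 at day 3, 10.36 and 10.09 at day 5, 10.003 and 9.75 at day 7. All 8 MOV arrays were below both sham arrays. It fell by 0.94, 1.46, 1.09 and 1.44 on the log2 scale at days 1, 3, 5 and 7 (adjusted p = 0.028, 0.00174, 0.0126 and 0.00297). The calls of days 1 and 5 were lost without sham replicate 1 (-0.60 and -0.75), without either day 1 array or without day 5 replicate 2 (-0.96). Ccl11 lies between Ccl7 and Ccl12 in the gene order, and these neighbours went the other way. The remaining 6 ligands of this kind, Ccl1, Ccl17, Ccl20, Ccl22, Ccl24 and Ccl26, passed no test against sham in SC+. Of the receptors, Ccr8 changed by -1.03 ± 0.24 (adjusted p = 0.0109) at day 5 and -0.76 ± 0.24 (adjusted p = 0.0487) at day 7, with SC+ levels of 4.67 to 6.14, and the day 7 call was lost without any 1 of the 4 arrays compared and the day 5 call without 3 of them. Ccr3, Ccr4, Ccr6, Ccr7, Ccr9 and Ccr10 did not pass on any day in SC+ or SC-.

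Among the homeostatic chemokines, which tissues and lymphoid organs make without inflammation, Cxcl12 and Cxcl14 rose in SC+, Ccl27a fell at 1 day and Cxcl13 fell late. Cxcl14, a chemokine of epithelium and stroma, had SC+ levels of 8.46 and 9.48 in sham, 9.60 and 10.34 at day 1, 11.05 and 11.59 at day 3, 9.93 and 9.19 at day 5, 9.29 and 8.60 at day 7. It peaked at day 3, the only day it passed, with 2.35 ± 0.40 (adjusted p = 0.00133), against 1.00, 0.59 and -0.02 at days 1, 5 and 7. Cxcl12, the stromal ligand of CXCR4, was at 11.52 and 12.60 in sham, 11.63 and 11.23 at day 1, 13.04 and 12.95 at day 3, 13.27 and 13.71 at day 5, 13.42 and 13.72 at day 7. The day 1 arrays lay near the lower sham array and the later ones above both sham arrays, with 1.43 ± 0.33 (adjusted p = 0.01) at day 5 and 1.51 ± 0.33 (adjusted p = 0.00803) at day 7. Without sham replicate 1 these were 0.89 (adjusted p = 0.091) and 0.97 (adjusted p = 0.071), and they were also lost without day 5 replicate 2 and day 7 replicate 2. Cxcl13, the B cell attractant, was at -1.10 ± 0.29 (adjusted p = 0.0205) at day 5 and -1.05 ± 0.29 (adjusted p = 0.0271) at day 7, and neither call held without sham replicate 2. Ccl27a fell by 0.95 at day 3 (adjusted p = 0.0104), -0.71 (adjusted p = 0.107) without sham replicate 1 and -0.83 (adjusted p = 0.0965) without day 3 replicate 2. Ccl19, Ccl21a, Ccl21b, Ccl21c, Ccl25, Ccl28 and Cxcl17 passed on no day against sham in SC+. The fibro-adipogenic markers (6 measured of 8 listed), had mean levels of 11.74 and 13.57 in sham, 10.75 and 10.51 at day 1, 13.56 and 13.08 at day 3, 14.68 and 14.91 at day 5, 15.58 and 15.52 at day 7 in SC+, so the arrays of sham also stood apart on them. Of these 6, 5 were lower at day 1 (median -1.94), 2 were higher and 1 lower at day 3 (-0.10), 4 were higher at day 5 (1.89) and 5 at day 7 (2.91). Their part in the changes of Ccl11, Cxcl12 and Cxcl14 was not tested.

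Cxcl16 and Pf4 had the most sustained rises among the remaining ligands. Cxcl16 is a membrane-bound chemokine of macrophages that also takes up oxidised lipids. Its SC+ levels were 8.71 and 9.81 in sham, 9.44 and 8.65 at day 1, 11.89 and 12.42 at day 3, 11.72 and 11.93 at day 5, 11.70 and 12.33 at day 7. Day 1 overlapped sham and every later array was above it. The log2 fold changes were -0.21 ± 0.38 (adjusted p = 0.774) at day 1 and 2.90 ± 0.38 (adjusted p = 0.000264), 2.57 ± 0.38 (adjusted p = 0.000929) and 2.76 ± 0.38 (adjusted p = 0.000672) at days 3, 5 and 7. Its receptor Cxcr6 stayed at 4.04 to 5.20 in SC+ and passed on no day. Pf4 encodes platelet factor 4, known from platelets and also made by some macrophages. Its SC+ levels were 6.38 and 8.19 in sham, 11.89 and 11.12 at day 1, 12.21 and 12.87 at day 3, 11.60 and 12.08 at day 5, 9.15 and 10.26 at day 7. All MOV arrays were above both sham arrays and day 3 held the highest. The changes against sham were 4.22 ± 0.53 (adjusted p = 0.00026), 5.26 ± 0.53 (adjusted p = 6.54e-05), 4.55 ± 0.53 (adjusted p = 0.000343) and 2.42 ± 0.53 (adjusted p = 0.00833), the last 1.52 (adjusted p = 0.0633) without sham replicate 1 and 1.87 (adjusted p = 0.101) without day 7 replicate 2. Xcl1, the lymphotactin of T and NK cells, passed no test against sham, and Cx3cl1 (fractalkine), at background, rose by 0.97 ± 0.29 (adjusted p = 0.0369) at day 7, a call lost without sham replicate 2 (0.65 (adjusted p = 0.2)) or either day 7 array.

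The receptors that lasted into day 7 were Ccr2, Cxcr4 and Cx3cr1. Cxcr4, the receptor of Cxcl12 on leukocytes and satellite cells, had SC+ levels of 5.38 and 6.12 in sham, 7.15 and 6.39 at day 1, 8.40 and 8.69 at day 3, 8.005 and 7.99 at day 5, 7.94 and 8.22 at day 7. The arrays of days 3, 5 and 7 lay within 1 of each other and at least 1.82 above the higher sham array. The log2 fold changes were 1.02 ± 0.31 (adjusted p = 0.0383), 2.79 ± 0.31 (adjusted p = 9.48e-05), 2.25 ± 0.31 (adjusted p = 0.000617) and 2.33 ± 0.31 (adjusted p = 0.000504), and only the day 1 call was lost without an array (sham replicate 1 0.65 (adjusted p = 0.26), day 1 replicate 1 0.65 (adjusted p = 0.284)). Cx3cr1, the fractalkine receptor of resident and patrolling myeloid cells, was low in sham and day 1 and rose by 1.83 ± 0.26 (adjusted p = 0.000399), 1.35 ± 0.26 (adjusted p = 0.00373) and 0.86 ± 0.26 (adjusted p = 0.0395) at days 3, 5 and 7. Its day 7 call was lost without sham replicate 2 (0.64 (adjusted p = 0.187)) or either day 7 array. Cxcr5, Xcr1 and the 4 atypical receptors Ackr1, Ackr2, Ackr3 and Ackr4 passed on no day against SC+ sham.

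**Figure D3:**
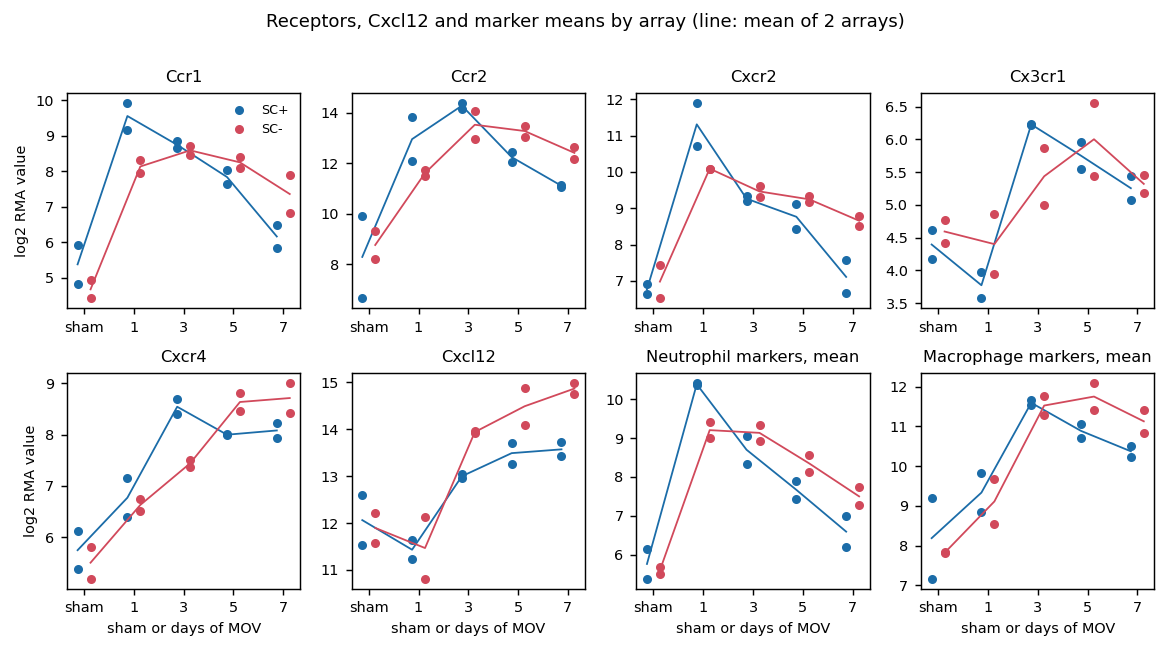
Levels (log2 RMA values, vertical axis) of 5 receptors and Cxcl12 and the mean level of the neutrophil and macrophage markers on each array in sham and on days 1, 3, 5 and 7 of MOV (horizontal axis), SC+ in blue and SC- in red, with a line through the mean of the 2 arrays. Cxcr2 is highest at day 1, as are the neutrophil markers, and Ccr2 at day 3.

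Most markers of monocytes and macrophages rose during the week, but not always on the same days as these receptors and ligands. The 12 macrophage markers measured, of 14 listed, had mean levels of 7.16 and 9.21 in sham, 9.83 and 8.83 at day 1, 11.53 and 11.66 at day 3, 10.70 and 11.07 at day 5, 10.23 and 10.51 at day 7 in SC+, and 3, 11, 11 and 10 of them rose at days 1, 3, 5 and 7. At day 1, when 1 of them fell, Ccr2 and Pf4 were already up and Cxcl16 and Cx3cr1 were not. Of 6 monocyte markers 5, 6, 5 and 3 rose. This list holds Fn1, the gene of the matrix protein fibronectin, which had the list's highest change at day 7 (4.62). Its SC+ sham arrays lay at 10.48 and 14.38. Their part in the changes of Ccr2, Cx3cr1, Pf4 and Cxcl16 was not tested.

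Among the steps between successive days in SC+, only that from day 1 to day 3 had members that passed. In SC+, 8 members were lower at day 3 than at day 1 and 5 were higher, beside 2.77% and 4.39% of all genes (limma, adjusted p under 0.05). Those that fell were the neutrophil ligands Cxcl2 (-3.84 ± 0.50), Cxcl3 (-2.13 ± 0.28) and Ppbp (-1.42 ± 0.38), their receptor Cxcr2 (-2.05 ± 0.40), Ccl3 (-2.95 ± 0.66) and the lymphoid chemokines Ccl21a (-1.03 ± 0.28) and Ccl21b with its identical copy Ccl21c (-1.62 ± 0.36). Those that rose were Cxcl16 (3.11 ± 0.38), Cx3cr1 (2.45 ± 0.26), Cxcr4 (1.77 ± 0.31), Cxcl12 (1.57 ± 0.33) and Ackr3 (1.09 ± 0.25), the atypical receptor that removes CXCL12. Of these 13 calls 4 held when any 1 array was left out: Cxcl2, Cxcl3, Cxcl16 and Cx3cr1. From day 3 to day 5 no member passed, beside 0.210% of all genes higher and 0.0359% lower. At an unadjusted p under 0.05 (limma) there were 13 of the 61 members, beside 2116 of all 19505 genes. From day 5 to day 7 no member passed either, beside 0% and 0% of all genes. Here 14 members had an unadjusted p under 0.05, beside 1112 of all genes. With so few calls over all genes, these later steps cannot show that the members had stopped changing.

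Against their own sham, the SC- mice had 19 members up and 1 down at day 1 (6.80% and 7.62% of all genes), 19 up and 4 down at day 3 (11.7% and 9.57%), 21 up and 5 down at day 5 (14.9% and 13.0%) and 15 up and 6 down at day 7 (15.0% and 13.6%) by limma on all 20 arrays. This fit has more arrays behind its error than the SC+ fit, so its counts and those of SC+ cannot be set against each other as sizes of response. Over the 4 days 26 members (42.6%) rose at least once in SC-, beside 20.6% of all genes. Of these, 22 were among the 25 that rose in SC+, which is 84.6% of the SC- list and 88.0% of the SC+ list. Of all genes 3687 rose in SC+, 4013 in SC- and 3014 in both, so a large overlap was not particular to the chemokines. The genes that rose in both were 36.1% of the members and 15.5% of all genes. The 3 that rose in SC+ alone were Cxcl1, Ccl4 and Cx3cl1 (4.92%, beside 3.45% of all genes), and the 4 in SC- alone were Ccl17, Ccl22, Cxcl13 and Ackr3 (6.56%, beside 5.12%). A call in one and not in the other does not show that they differ. In SC-, 12 members rose on all 4 days (19.7%, beside 3.44% of all genes), and they were Cxcl5, Ccl2, Ccl7, Ccl12, Ccl3, Ccl6, Ccl9, Pf4, Ccr1, Ccr2, Cxcr2 and Cxcr4. Of the 26 that rose, the highest mean was at day 1 in 5, at day 3 in 11, at day 5 in 8 and at day 7 in 2.

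The levels behind this were as follows for the members with the widest changes. In SC-, Cxcl2 was at 5.50 and 5.42 in sham, 11.04 and 10.29 at day 1, 10.85 and 11.30 at day 3, 7.84 and 8.18 at day 5, 6.67 and 6.05 at day 7. Its mean at day 3 was not below that at day 1, which it was in SC+. Its log2 fold changes against SC- sham were 5.20 ± 0.45 (adjusted p = 4.95e-07), 5.61 ± 0.45 (adjusted p = 5.97e-07) and 2.55 ± 0.45 (adjusted p = 0.000247) at days 1, 3 and 5. Ccl3 was at 6.33 and 5.87 in sham, 11.16 and 10.95 at day 1, 11.65 and 13.32 at day 3, 10.09 and 9.79 at day 5, 7.82 and 8.74 at day 7 in SC-. It too was highest at day 3, with 6.38 ± 0.64 (adjusted p = 2.41e-06), and its day 7 value of 2.18 ± 0.64 (adjusted p = 0.0136) was lost without sham replicate 2 (1.95 (adjusted p = 0.0884)) or day 7 replicate 2 (1.72 (adjusted p = 0.133)). Pf4 was at 7.06 and 7.17 in sham, 10.20 and 9.41 at day 1, 13.79 and 12.51 at day 3, 13.32 and 13.52 at day 5, 12.46 and 12.23 at day 7 in SC-. Here day 5 matched day 3 and day 7 stayed near them, with 6.03 ± 0.51 (adjusted p = 6.92e-07), 6.30 ± 0.51 (adjusted p = 2.7e-07) and 5.23 ± 0.51 (adjusted p = 5.73e-07). Ccl2 and Ccl7 were 2.68 ± 0.41 (adjusted p = 4.97e-05) and 2.36 ± 0.42 (adjusted p = 0.000253) above SC- sham at day 7, and Ccl7 came to 1.52 (adjusted p = 0.0113) without day 7 replicate 1.

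Cxcl12 had SC- levels of 11.58 and 12.21 in sham, 10.81 and 12.12 at day 1, 13.95 and 13.92 at day 3, 14.89 and 14.09 at day 5, 14.98 and 14.74 at day 7. It rose in SC- from day 3, by 2.04 ± 0.40 (adjusted p = 0.000813), 2.59 ± 0.40 (adjusted p = 5.65e-05) and 2.97 ± 0.40 (adjusted p = 1.32e-05). Its receptor Cxcr4 was at 5.82 and 5.19 in sham, 6.52 and 6.74 at day 1, 7.51 and 7.38 at day 3, 8.81 and 8.47 at day 5, 9.01 and 8.42 at day 7 in SC- and rose by 1.94 ± 0.31 (adjusted p = 0.000139), 3.13 ± 0.31 (adjusted p = 9.15e-07) and 3.21 ± 0.31 (adjusted p = 5.38e-07) at days 3, 5 and 7. Both were up at day 7, as they were in SC+. Among the falls, Ccl27a, a skin chemokine, was down on all 4 days in SC- (-0.96, -1.03, -0.90 and -0.86). Ackr2, the atypical receptor that removes inflammatory CC chemokines, was down at days 3, 5 and 7 (-0.85, -0.94 and -1.15), and so was Cxcr3 (-0.99, -1.06 and -0.93). All of these were small, and 1 or more arrays ended each call: without SC- sham replicate 2 Ackr2 was -0.45, -0.55 and -0.75, and without SC- sham replicate 1 Cxcr3 was -0.57, -0.65 and -0.52. Calls at a single day in SC- were rises of Ccl17 (0.81) and Cxcl13 (1.14) at day 1, Ackr3 (1.09) at day 3 and Ccl22 (0.97), Cxcl9 (1.12) and Cx3cr1 (1.41) at day 5, and falls of Ccl20 (-0.84) at day 5 and of Ccl19 (-0.98) and Cxcl11 (-1.04) at day 7. None of these 9 held when any 1 array was left out, with values down to 0.63 for Cxcl13 (without day 1 replicate 1), 0.43 for Ccl22 (without day 5 replicate 1) and 0.52 for Cxcl9 (without sham replicate 1). Ccl11 fell in SC- too, by 0.95, 1.30 and 2.16 on the log2 scale at days 3, 5 and 7, and the day 7 call held without any 1 array. Ccl27a lost its call at days 1, 5 and 7 without sham replicate 2 (-0.86, -0.80 and -0.76) and at day 3 without day 3 replicate 2 (-0.86).

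The direct comparison of SC- with SC+ at each time asks where the loss of satellite cells, with tamoxifen, went with another level. It used an unadjusted p under 0.05, the threshold of the study's methods for this comparison, with the adjusted p beside each value (limma on 20 arrays). In sham 1 member was higher in SC- and 2 were lower, beside 2.55% and 3.02% of all genes. At day 1, 3 were higher and 10 lower (2.94% and 3.05%), at day 3, 7 were higher and 4 lower (2.79% and 2.66%), at day 5, 8 were higher and 0 lower (4.47% and 4.73%), and at day 7, 10 were higher and 3 lower (6.20% and 5.91%). Over all time points 6 were higher and 3 lower (4.41% and 4.29%). After adjustment over all genes (limma) 1 member passed at day 3 and 1 at day 7, while sham, day 1, day 5 and the comparison over all time points gave none. The shares of all genes that passed after adjustment were 0% in sham and at day 1, 0.0308%, 0.00513% and 0.287% at days 3, 5 and 7 and 0.0410% for the comparison over all time points. The direction of the differing members thus turned from mostly lower at day 1 to mostly higher at days 5 and 7.

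**Figure D4:**
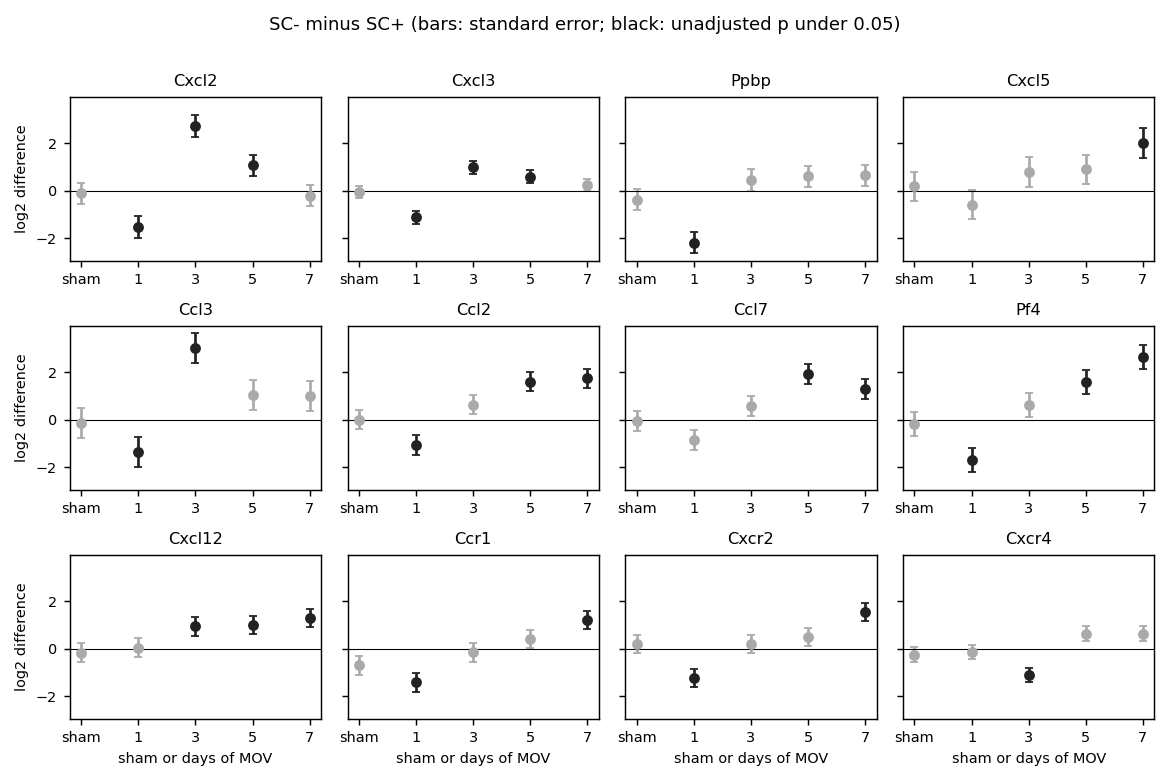
Log2 difference SC- minus SC+ (vertical axis) in sham and on days 1, 3, 5 and 7 of MOV (horizontal axis) for 12 members, with the standard error from limma as bars and black points for an unadjusted p under 0.05. Ppbp is lowest at day 1 at -2.18, Cxcl2 and Ccl3 are highest at day 3 at 2.73 and 3.01, and Pf4 is highest at day 7 at 2.64.

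At day 1 the members lower in SC- were neutrophil and monocyte attractants and their receptors. Ppbp was at 7.45 and 7.06 in SC- against 9.45 and 9.42 in SC+, a log2 difference of -2.18 ± 0.45 (adjusted p = 0.461). Cxcl2 differed by -1.52 ± 0.45 (adjusted p = 0.64), Cxcl3 by -1.12 ± 0.26 (adjusted p = 0.461) and Pf4 by -1.70 ± 0.51 (adjusted p = 0.663). Ccr1 differed by -1.42 ± 0.38 (adjusted p = 0.546). These 5 kept a p under 0.05 when any 1 array was left out. The other 5 did not: without SC+ day 1 replicate 1 Ccl12 was -0.34 rather than -1.69, Ccl2 -0.63 rather than -1.06, Ccl3 -1.06 rather than -1.36, Ccl6 -0.81 rather than -1.31 and Cxcr2 -0.62 rather than -1.22. That array was higher than its partner by more than 1 in 8 members. The 3 higher in SC-, Cxcl9 (0.88), Cxcl14 (0.90) and Ackr3 (0.85), all lost the threshold without SC- replicate 2 (0.94, 0.58 and 0.42). Over the same day 6 of 8 neutrophil markers were lower in SC- (median difference -1.32), with mean levels of 9.41 and 8.998 against 10.35 and 10.42 in SC+, while 1 of 3 platelet markers was higher. Of the 6 fibro-adipogenic markers 4 were higher in SC- (median difference 1.55), with mean levels of 10.94 and 13.45 against 10.75 and 10.51 in SC+, so SC- replicate 2 stood apart on them. Without that array 1 member was higher and 7 were lower, and without SC+ replicate 1 it was 1 and 6. The part of these markers in the differences was not tested.

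At day 3 Cxcl2, Cxcl3 and Ccl3, which were lower in SC- at day 1, were higher in SC-, and the other 4 ELR ligands did not pass. Cxcl2 was at 10.85 and 11.30 in SC- against 7.62 and 9.07 in SC+, a log2 difference of 2.73 ± 0.45 (adjusted p = 0.0398), and Ccl3 was at 11.65 and 13.32 in SC- against 9.11 and 9.83 in SC+, 3.01 ± 0.64 (adjusted p = 0.286). For both genes the SC- arrays were all above the SC+ arrays, and Cxcl2 is the member that passed after adjustment at this day. Cxcr4 was lower in SC-, at 7.51 and 7.38 in SC- against 8.40 and 8.69 in SC+, -1.10 ± 0.31 (adjusted p = 0.626). Cxcl2, Ccl3 and Cxcr4 were the members that kept a p under 0.05 when any 1 array was left out. The others were Cxcl3 (0.98), Cxcl12 (0.94), Ccl5 (0.62) and the pair Ccl21b and Ccl21c (1.03), which were higher, and Cx3cr1 (-0.79), Cxcl17 (-0.68) and Ackr2 (-0.65), which were lower. Leaving out 1 array moved Cxcl3 to 0.62 (SC+ replicate 1), Cx3cr1 to -0.36 (SC- replicate 2), Cxcl17 to -0.44 (SC+ replicate 1) and Ackr2 to -0.41 (SC- replicate 1).

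At days 5 and 7 Pf4, Cxcl12 and the CCR2 ligands Ccl2 and Ccl7 were higher in SC-, while Ccl12 and Ccl8 did not pass at either day. Ccl7 was at 11.09 and 10.75 in SC- against 8.87 and 9.13 in SC+ at day 5, a log2 difference of 1.92 ± 0.42 (adjusted p = 0.173). Ccl2 was at 12.56 and 11.73 in SC- against 10.74 and 10.34 in SC+ at day 5, 1.61 ± 0.41 (adjusted p = 0.246). No SC- array overlapped SC+ in either gene, and these 2 kept a p under 0.05 without any 1 array. The other 6 members higher at day 5 were Pf4 (1.58), Cxcl2 (1.06), Cxcl12 (1.00), Cxcl16 (0.92), Cxcl13 (0.80) and Cxcl3 (0.59). They did not hold without 1 array, among them Cxcl12, which came to 0.60 without SC- replicate 1. In the same comparison 4 of 8 myofibre markers were lower in SC- (median difference -0.64), 4 of 7 endothelial markers were higher and 1 lower (0.61), 3 of 12 macrophage markers were higher (1.02) and 2 of 8 neutrophil markers were higher (0.69), and their part in these differences was not tested.

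Pf4 at day 7 was the other difference that passed after adjustment. It was at 12.46 and 12.23 in SC- against 9.15 and 10.26 in SC+, a log2 difference of 2.64 ± 0.51 (adjusted p = 0.0312). Both SC- arrays were above both SC+ arrays. Ccl2 was at 10.34 and 9.55 in SC- against 8.10 and 8.31 in SC+, 1.74 ± 0.41 (adjusted p = 0.0738), Cxcl12 differed by 1.29 ± 0.40 (adjusted p = 0.164) and Cxcr2 by 1.55 ± 0.38 (adjusted p = 0.0819), and these 3, like Pf4, kept a p under 0.05 without any 1 array. The others were smaller or rested on an array. Without SC+ replicate 1 Cxcl5 was 1.11 rather than 2.00, Ccl9 1.33 rather than 1.99 and Ccr1 0.87 rather than 1.20. Without SC- replicate 1 Ccl7 was 0.44 rather than 1.28 and Ccl11 -0.27 rather than -0.63. Ccl6 (1.59) and Ccl4 (0.61) were higher and Ccl17 (-0.68) and Ccl27a (-0.54) lower, with p above the threshold without some array. At day 7, 5 of 8 neutrophil markers were higher in SC- (median difference 0.96), and 1 of 12 macrophage markers was (0.73). The mean level of the macrophage markers was 11.42 and 10.84 against 10.23 and 10.51 in SC+. Of 8 myofibre markers 3 were lower (-0.41). Their part in these differences was not tested.

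In sham muscle the 3 differences were small and in genes at background, Ccl17 (-0.80 ± 0.25 (adjusted p = 0.744)), Ccr8 (-0.73 ± 0.25 (adjusted p = 0.809)) and Xcr1 (0.95 ± 0.37 (adjusted p = 0.83)), and none held without some array (SC+ sham replicate 1 took Xcr1 to 0.42 and Ccl17 to -0.60, and SC+ sham replicate 2 took Ccr8 to -0.53). Over all time points Cxcl12 differed by 0.62 ± 0.20 (adjusted p = 0.367) and Cxcl17 by -0.31 ± 0.12 (adjusted p = 0.432), and these 2 held without any 1 array. Cxcl17 is at background here (mean 5.25). Cxcl5 (0.65), Ccl2 (0.58), Ccl7 (0.57), Cxcl14 (0.42), Cxcl13 (0.34), Ccl17 (-0.33) and Ackr2 (-0.30) did not hold without some array. Whether the response to MOV itself differed was tested as the SC- change minus the SC+ change. At an unadjusted p under 0.05 it differed in 6, 4, 6 and 10 members at days 1, 3, 5 and 7, beside 4.93%, 4.20%, 7.80% and 9.28% of all genes, and in none after adjustment (limma). The widest were Ccl3 and Cxcl2 at day 3 and Pf4 at day 7, each with the larger rise in SC-. At day 1 the difference was negative in 5 of 6, the ELR ligands Cxcl2, Cxcl3 and Ppbp with Cxcr2 and Pf4, and at day 7 it was positive in 9 of 10.

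Many of the listed genes around the chemokines rose over the same days, and many did not pass. Of all genes 8.70%, 12.0%, 11.4% and 10.5% rose at days 1, 3, 5 and 7 in SC+. In SC- these shares were 6.80%, 11.7%, 14.9% and 15.0%. Of the inducers of chemokine genes (cytokines, pattern receptors and interferon factors, 19 of 21 listed measured), 13, 13, 11 and 6 rose at days 1, 3, 5 and 7 in SC+, among them Il1b (5.77 at day 1), Il6 (3.51 at day 1), Tlr4 (2.99 at day 1) and the interferon factor Irf7 (3.19 and 3.52 at days 1 and 3). The SC+ arrays of Irf7 lay at 3.32 and 4.15 in sham and 7.95 and 5.90 at day 1. The interferon genes Ifnb1 and Ifng stayed at 4.84 to 5.43 and 6.46 to 7.25 in SC+. In SC- 12, 13, 14 and 9 of the inducers rose. Of the genes that carry chemokine signals inside leukocytes (28 of 32 measured), 12, 17, 14 and 11 rose in SC+ and none fell, with the Rac activator Dock2 at 2.85, 3.98, 3.04 and 1.85, which without sham replicate 1 came to 1.78, 2.90, 1.97 and 0.78 (adjusted p = 0.195 at day 7, a call also lost without either day 7 array), and without sham replicate 2 to 2.93 at day 7. In SC- 7, 16, 20 and 18 rose and 1 fell at day 1. Against SC+ (unadjusted p under 0.05) 3 were lower in SC- at day 1 and 1 at day 3, with none higher, while 10 were higher at day 5 and 8 at day 7, with none lower. Of all genes 3.05% and 2.66% were lower at days 1 and 3, and 4.47% and 6.20% higher at days 5 and 7. Of the proteases and other factors that trim chemokines or attract leukocytes (12 of 16 measured), 4, 5, 5 and 4 rose in SC+ and 1 fell at day 1. Mmp12, the macrophage elastase, rose by 4.60 at day 3 and 4.71 at day 7, and the neutrophil proteases Mmp8 and Mmp9 by 3.70 and 3.40 at day 1. The SC+ arrays of Mmp12 were far apart, at 9.90 and 12.43 at day 3 and 9.81 and 12.75 at day 7, against 6.30 and 6.84 in sham. Mmp2, which cuts CCL7 and CXCL12, was -2.36 at day 1 and 4.31 at day 7. Its sham arrays lay at 10.87 and 13.73, and without replicate 1 the values were -3.79 and 2.88 and without replicate 2 -0.93 (adjusted p = 0.0597) and 5.74, the day 1 call being lost also without either day 1 array. Mmp9 was higher in SC- than in SC+ at day 7 by 3.37 on the log2 scale (limma, adjusted p = 0.0117), and by 2.52 (adjusted p = 0.174) without SC- replicate 1 and 2.27 (adjusted p = 0.245) without SC+ replicate 1.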

How the data were processed

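RNA of whole plantaris muscle was measured on 20 arrays, 10 from SC+ and 10 from SC- mice. The values the authors deposited are log2 intensities of 28846 probe sets, from 2.22 to 19.93. According to the submitters' processing notes they come from RMA, which corrects background, makes the arrays' distributions equal and sums the probes of a set. The study's methods name the Bioconductor packages GEOquery and oligo in R, and the versions of these packages and the probe-set definition are not given in the sources used here. Arrays hold no read depth, and their number limits the precision.

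Of the rows, 19572 carried exactly 1 symbol in the platform annotation and the other 9274 were used only in an alternative. For 55 genes with several probe sets the one with the highest mean was kept, which left 19505 genes. Group means were fitted in R 4.3.3 with limma 3.58.1 (statmod 1.5.0 for robust estimation): the 10 SC+ arrays alone for SC+ against sham and between days (5 residual degrees of freedom), all 20 arrays for SC- against sham, SC- against SC+ and the difference between the responses (10), and an additive model of time point and treatment (14). The threshold was an adjusted p under 0.05 over all genes, or, for SC- against SC+, an unadjusted p under 0.05. The fits were tested on simulated data with known changes. Nothing in the sources used here says that the pools of a group came from separate surgeries, so p-values measure the spread between pools.

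The members, gene lists and tests were chosen with earlier results of these data known. Levels are given array by array for members past the threshold in SC+ with a log2 fold change of at least 2, up to 4 of a role, and for the 6 members with the smallest p in SC- against SC+. Ccl11 and Cxcl12 were added after their values were seen. Promoters were taken from RefSeq, build GRCm38.p6. The alternatives were another normalization, centring on array medians, all rows, a floor on the mean, another variance model, a replicate block, all 20 or only the SC- arrays in the fit, and leaving out each array.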

Additional observations from a re-analysis of the deposited data

Results flagged for a closer look

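The groups held 2 arrays each, too few to test for a single outlying array. The results below are members whose response to MOV (day minus sham) differed between SC- and SC+ at an unadjusted p under 0.01 in limma's test of the difference between the responses, given as the SC- minus the SC+ log2 change. After adjustment over all genes none passed (adjusted p from 0.258 to 1). At day 1 the response of Ccl17 was higher in SC- by 1.12. At day 3 that of Cxcl2 was higher by 2.83 and that of Ccl3 by 3.16. At day 5 Ccl7 was higher by 1.98 and Ccr8 by 1.23. At day 7 Pf4 was higher by 2.81, Ccr1 by 1.90, Ccl2 by 1.73, Ccr8 by 1.17 and Ccl4 by 1.05. All of these but Ccl2 at day 7 kept an unadjusted p under 0.05 when any 1 array was left out. Ccl17 and Ccr8 were near the background of the arrays and differed already in sham at an unadjusted p under 0.05.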

How the results depend on the processing

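Counting only values of single members that passed their threshold before or after the change, 1 changed sign: Ccl9 in SC- minus SC+ sham, 0.11 as fitted on all arrays, was -1.51 without SC+ sham replicate 1 and 1.73 without replicate 2. With all rows of the value table in the fit 6 rather than 13 members passed at SC+ day 7 and 6 rather than 13 from day 1 to day 3, and the counts of SC- against SC+ were 7 rather than 13 at day 1 and 5 rather than 9 over all time points. With only genes of mean 6 or more, fewer members could pass, and SC- against SC+ gave 0 rather than 3 in sham and 4 rather than 9 over all time points. Quantile normalization run again gave 4 over all time points, and a variance model with trend and robust estimation gave 1 rather than 0 from day 5 to day 7; the cause was not tested. Moves of the counts by over 1.5 times without 1 array were seen, among others, at SC+ day 5 (13 rather than 21, without day 5 replicate 2), SC+ day 7 (4, without day 7 replicate 2, 6 without replicate 1 and 7 without sham replicate 1), SC- against SC+ at day 3 (7 rather than 11, without SC+ replicate 2) and day 7 (5 rather than 13, without SC+ replicate 1, and 7 without SC- replicate 1), and the difference between the responses without SC+ sham replicate 2 (14 rather than 6 at day 1) or replicate 1 (16 rather than 6 at day 5 and 20 rather than 10 at day 7). From day 1 to day 3 leaving out any of the 4 arrays did the same. Leaving out 1 array gave counts of 16 to 20, 17 to 24, 13 to 22 and 4 to 15 members in SC+ at days 1, 3, 5 and 7, of 5 to 7 from day 1 to day 3 and 0 in both later steps. In SC- it gave 15 to 17, 20 to 22, 20 to 25 and 17 to 19. For SC- against SC+ it gave 4 to 6 in sham, 7 to 17, 7 to 10, 6 to 11 and 5 to 12 at days 1, 3, 5 and 7, and 3 to 11 over all time points, and for the difference between the responses 3 to 14, 5 to 9, 4 to 16 and 5 to 20.

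The labels give a replicate number no shared animal or day, and samples were not treated as pairs: over 45 pairs of groups the correlation of same-numbered deviations lay between -0.155 and 0.216, with 12 over 0.1. With the number as a replicate block 19, 19, 21 and 13 members passed in SC+ at days 1, 3, 5 and 7 and 21, 22, 25 and 21 in SC-. SC- against SC+ gave 3 in sham, 12, 10, 9 and 12 at days 1, 3, 5 and 7 and 6 rather than 9 over all time points, from day 1 to day 3 it was 13, and the difference between the responses gave 5, 4, 7 and 11. Members near the background of the arrays, 25 of 61, have changes that such arrays may understate.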
